A study of Homo sapiens with 2 samples.

Results

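The genes described here encode the machinery that starts transcription in human cells: the subunits of RNA polymerases I, II and III, the Mediator complex, the general initiation factors, and the TATA-binding-protein-associated factors (TAFs). They were chosen by symbol alone, as the protein-coding genes of the RefSeq table (assembly GRCh38.p14) whose symbols begin with POLR1, POLR2, POLR3, GTF2 or GTF3, or with MED or TAF followed by a digit. The rule found 126 of 20056 protein-coding entries. Of these, 125 lie on chromosomes 1 to 22 and X, among 19821 protein-coding genes placed there, and GTF2H2C_2, a copy of a TFIIH gene, lies on another scaffold and was not analysed here.

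The data are PRO-cap of untreated HUDEP-2 cells, wild-type erythroid progenitors that were immortalised from human umbilical cord blood, in 2 biological replicates and 1 group. PRO-cap labels nascent RNA by a run-on in isolated nuclei and reads the capped 5′ ends, so that each signal marks a base at which an RNA polymerase began. The deposited values are 26395 called start positions, 13229 on the forward strand and 13166 on the reverse strand, without replicate, read count or strength. A call therefore says only that a start passed a threshold that is not known here, a gene without one can be transcribed below it, and no depth per sample or replicate spread can be given.

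Of 11 erythroid marker genes, 10 had a called start, among them GATA1, KLF1, HBB and ALAS2, and TAL1 had 5 calls in or near the gene but none at its ends. Of 9 markers of lymphoid, granulocytic, megakaryocytic and hepatic cells, 0 had a called start or any call in or near the gene.

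RNA polymerase II makes messenger RNA, RNA polymerase I makes the large ribosomal RNA, and RNA polymerase III makes transfer RNA, 5S ribosomal RNA and other short RNAs. At a promoter of RNA polymerase II, TFIID (TATA-binding protein with its TAFs), TFIIA and TFIIB position the enzyme, TFIIF accompanies it, and TFIIE and TFIIH help to open the DNA, while Mediator relays signals from bound activators. RNA polymerase I depends on the TATA-binding-protein complex SL1. RNA polymerase III depends on TFIIIB and, according to the type of gene, on TFIIIA, TFIIIC or other factors. In erythroid cells MED1, a subunit of the Mediator middle, is known to bind the transcription factor GATA1.

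The bases at the called starts show where these genes begin. Each line below gives 40 bases before the call and 15 from the call on, 5′ to 3′ on the strand of the gene, from RefSeq promoter windows of GRCh38.p14. Capitals mark the base before the call, the base of the call and the base after it. POLR2A and POLR2B, which form the active centre of RNA polymerase II, are shown with TAF13 and GTF3C2 because a T is followed by a purine at the call itself. They lie at chr17:7484326-7484380 (forward), chr4:56978856-56978910 (forward), chr1:109075989-109076043 (reverse) and chr2:27356750-27356804 (reverse).
POLR2A: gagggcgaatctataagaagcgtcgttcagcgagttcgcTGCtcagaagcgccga
POLR2B: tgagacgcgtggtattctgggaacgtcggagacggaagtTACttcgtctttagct
TAF13: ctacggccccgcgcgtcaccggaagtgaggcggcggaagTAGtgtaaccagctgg
GTF3C2: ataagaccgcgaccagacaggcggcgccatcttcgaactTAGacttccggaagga

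In the next 5 genes the call lies on a C that is followed by a purine, so that the same pyrimidine-purine step sits 1 base further on. POLR3A, the largest subunit of RNA polymerase III, TAF1 and TAF5 of TFIID, GTF2A1 of TFIIA and GTF2B, which is TFIIB, lie at chr10:78029502-78029556 (reverse), chrX:71366316-71366370 (forward), chr10:103367940-103367994 (forward), chr14:81221377-81221431 (reverse) and chr1:88891551-88891605 (reverse).
POLR3A: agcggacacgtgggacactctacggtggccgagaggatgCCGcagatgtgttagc
TAF1: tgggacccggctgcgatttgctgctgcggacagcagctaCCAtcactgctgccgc
TAF5: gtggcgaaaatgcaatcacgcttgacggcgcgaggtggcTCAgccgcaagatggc
GTF2A1: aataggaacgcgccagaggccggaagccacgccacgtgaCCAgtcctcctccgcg
GTF2B: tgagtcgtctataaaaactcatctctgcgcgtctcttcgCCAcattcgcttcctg

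TAF4B, a paralogue of TAF4 best known from germ cells and ovary, and TAF4 itself are shown because both had a called start in these cells. They lie at chr18:26226415-26226469 (forward) and chr20:62065832-62065875 (reverse), the second line ending with the RefSeq window.
TAF4B: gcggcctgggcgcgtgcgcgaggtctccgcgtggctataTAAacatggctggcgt
TAF4: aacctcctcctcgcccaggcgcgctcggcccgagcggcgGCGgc

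MED12, TAF7L and TAF11L2 stand for the genes without a called start, and here the capitals mark the base before the annotated start, that start and the base after it. Their stretches are chrX:71118556-71118610 (forward), chrX:101293069-101293123 (reverse) and chr5:17498191-17498245 (forward).
MED12: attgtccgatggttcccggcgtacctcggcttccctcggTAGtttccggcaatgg
TAF7L: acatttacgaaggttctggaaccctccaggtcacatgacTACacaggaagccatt
TAF11L2: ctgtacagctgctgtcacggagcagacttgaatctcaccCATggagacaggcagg

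A gene was counted as having a called start when a call lay within 500 bp of 1 of its outer ends and pointed into it. Of the 125 genes, 90 had one (72.0%, 95% Wilson interval 63.6% to 79.1%), against 41.4% of all protein-coding genes, which include these. Some call of either strand lay inside the gene or within 500 bp of it for 97 (77.6%, 69.5% to 84.0%), against 52.6% of all protein-coding genes. All intervals here cover counting error only and treat genes as independent, which copies and gene pairs are not.

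The share depended on which genes are counted. Of 100 genes taken as main subunits, 87 had a called start (87.0%, 79.0% to 92.2%). Of 25 taken as variants, 3 did (12.0%, 4.17% to 30%), namely POLR3GL, TAF4B and TAF9B. The variants without one were POLR2J2, POLR2J3, POLR2M, MED12L, MED13L, GTF2A1L, GTF2H2C, TAF1L, TAF7L and the 13 genes of the TAF11L cluster. The share over all protein-coding genes was 41.4%. This division was made by hand with earlier results of these data known. It took the called paralogues TAF5L and TAF6L, and also the uncalled TFII-I family and TAF15, as main subunits, so that both shares depend on the sorting.

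**Figure D1:**
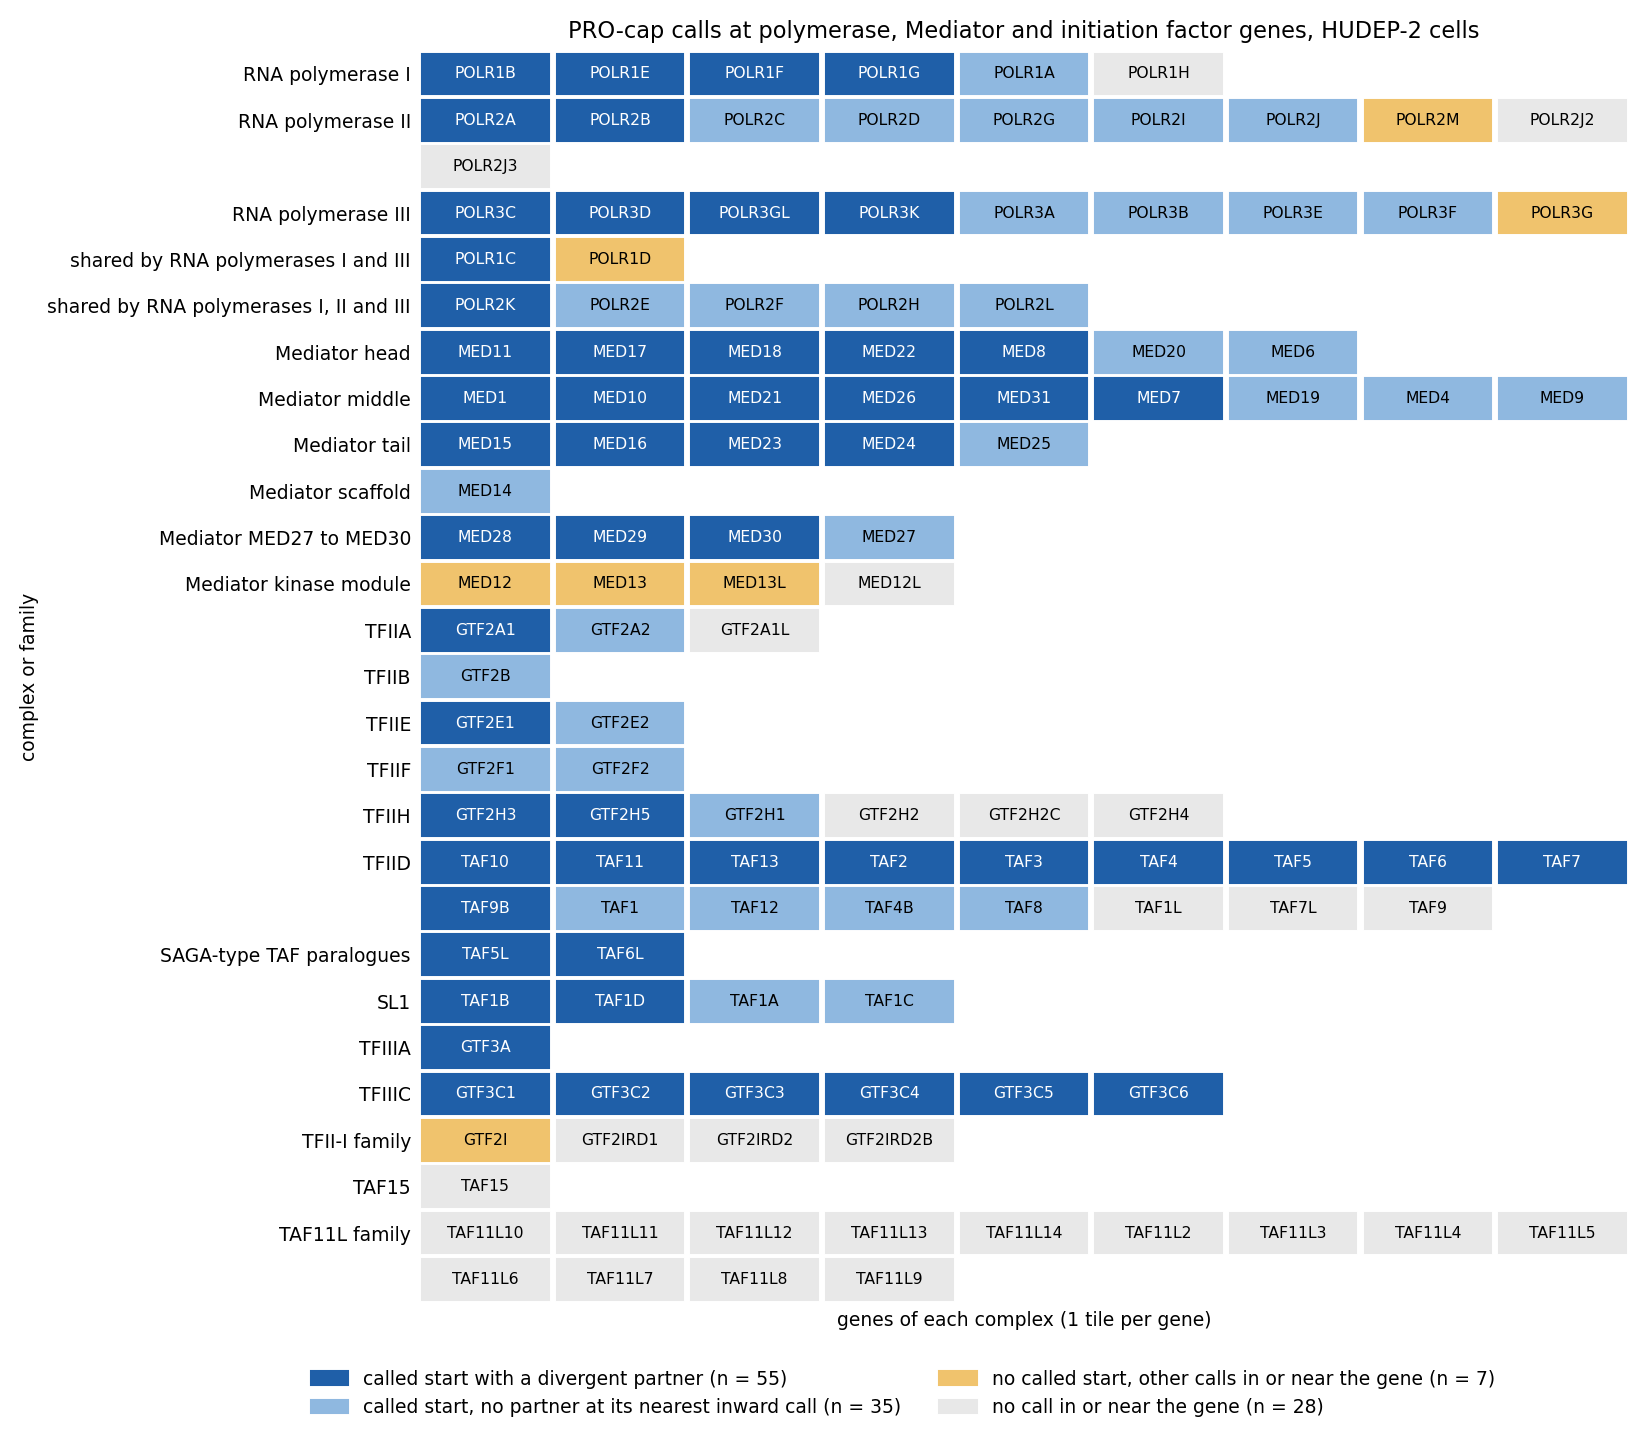
Each tile is 1 gene, in rows by complex (vertical axis), and its colour gives its call state; 55 genes had a divergent partner at the inward call nearest the gene end, 35 had a called start but no partner at that call, 7 only other calls in or near the gene and 28 no call. All tiles of the TAF11L family are grey, and no tile of the Mediator kinase module is blue; 1 gene is not drawn.

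**Figure D2:**
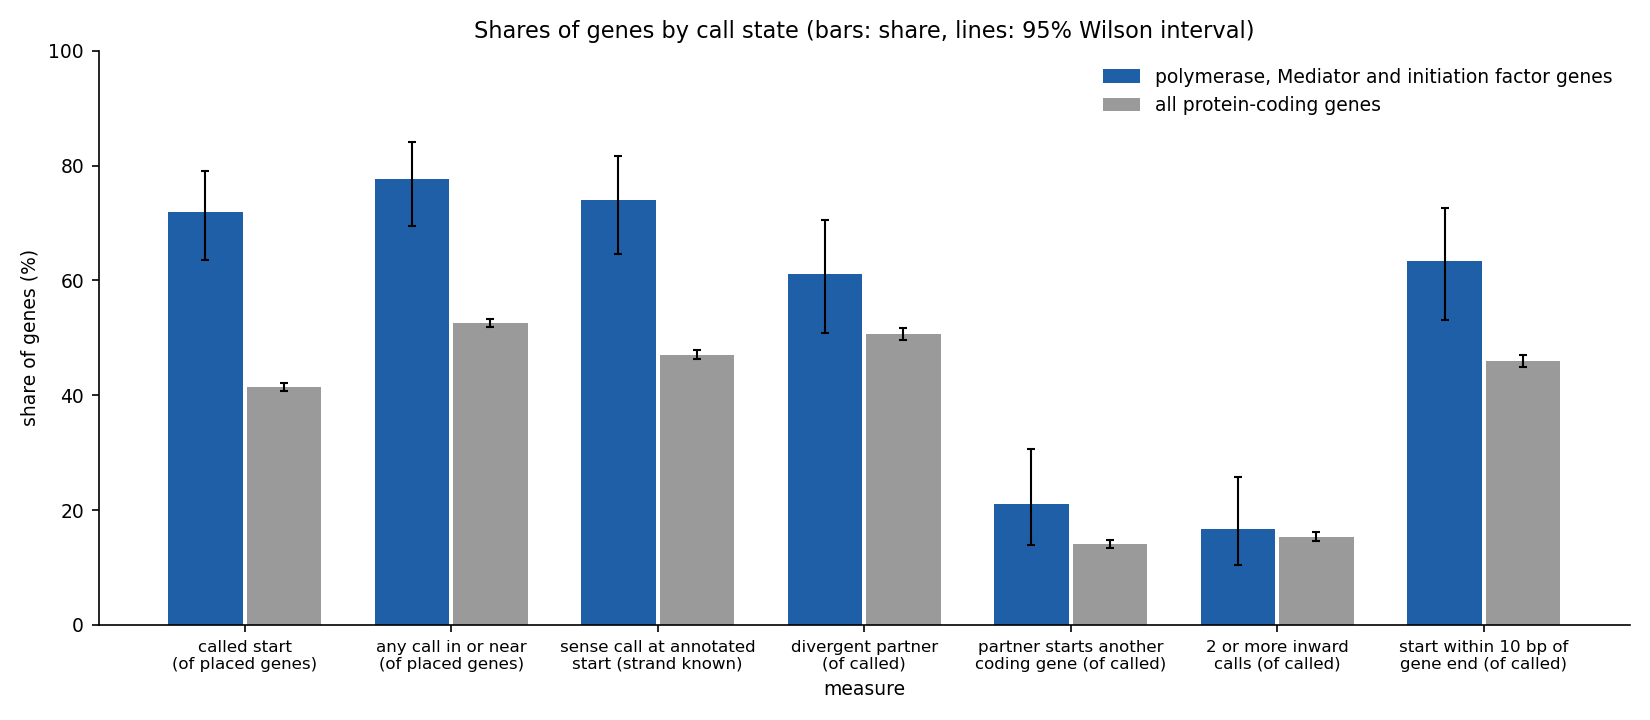
Bars give the share of genes (%) for each measure on the horizontal axis, in blue for the polymerase, Mediator and initiation factor genes and in grey for all protein-coding genes, with 95% Wilson intervals as lines. The intervals of the 2 sets do not overlap for a called start, any call, a sense call at an annotated start and a start within 10 bp of the gene end, and they overlap for divergent partners, partners at coding genes and second inward calls.

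Of 33 polymerase subunit genes, 27 had a called start (81.8%, 65.6% to 91.4%), against 41.4% of all protein-coding genes. The catalytic subunits were all among them. POLR2A was called at 7484366 on chromosome 17, on the first base of the gene, and POLR2B at 56978896 on chromosome 4, also on the first base. For RNA polymerase III, POLR3A was called at 78029516 on chromosome 10, 1 bp outside the gene end, and POLR3B at 106357806 on chromosome 12, 58 bp inside. For RNA polymerase I, POLR1A was called at 86105875 on chromosome 2, 11 bp inside, and POLR1B at 112542177 on the same chromosome, 141 bp inside.

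RNA polymerase I had 5 of 6 own subunits called (POLR1A, POLR1B, POLR1E, POLR1F and POLR1G). POLR1H, its zinc-binding subunit that takes part in RNA cleavage, had no call in or near the gene. Of the subunits shared with RNA polymerase III, POLR1C was called on its first base and POLR1D was not called at its ends. POLR1D had a sense call at 27621896 on chromosome 13, 1153 bp inside the gene and 4 bp downstream of another annotated start of it. Its other calls in or near the gene were reverse calls 217 bp outside and 609 bp inside its 5′ end, at 27620526 and 27621352, and the inner one lies at the start of the neighbouring gene LNX2.

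RNA polymerase II had 7 of 10 own genes called (POLR2A, POLR2B, POLR2C, POLR2D, POLR2G, POLR2I and POLR2J), and all 5 subunits shared by the 3 enzymes were called (POLR2E, POLR2F, POLR2H, POLR2K and POLR2L). POLR2J was called on the first base of the gene at 102478922 on chromosome 7, while its near-identical copies POLR2J2 and POLR2J3 had no call. How the authors treated reads that match more than 1 copy is not given in the sources used here, and its part in the missing calls was not tested. POLR2M, a gene for a regulator that associates with the enzyme and no core subunit, had only 1 call, pointing away from it 151 bp outside its 5′ end at 57706563 on chromosome 15. POLR2H had 3 sense calls, 1 bp outside the gene end and 1420 bp and 1683 bp inside it.

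RNA polymerase III had 9 of 10 own genes called, among them POLR3A, POLR3B, POLR3C, POLR3D, POLR3E, POLR3F, POLR3GL and POLR3K. The exception was POLR3G, the alternative to POLR3GL that is known from stem cells and tumour cells. POLR3GL was called on its first base, at 145964690 on chromosome 1. POLR3G had forward calls at 90473411, 90474508 and 90474888 on chromosome 5, which lie 518 bp outside its lower end and 579 bp and 959 bp inside it, so that all 3 fell outside the 500 bp window. Its reverse calls, at 90474200 and 90474662, lay 271 bp and 733 bp inside, the second at the start of MBLAC2. POLR3G and POLR3GL therefore differed in the place of their calls, and which of them was transcribed more cannot be read from calls without strength.

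Mediator had 26 of 30 genes called (86.7%, 70.3% to 94.7%), against 41.4% of all protein-coding genes. The head was called in 7 of 7 genes (MED6, MED8, MED11, MED17, MED18, MED20 and MED22), the middle in 9 of 9 (MED1, MED4, MED7, MED9, MED10, MED19, MED21, MED26 and MED31), and the tail in 5 of 5 (MED15, MED16, MED23, MED24 and MED25). MED14, the scaffold that links them, was called, and so were MED27, MED28, MED29 and MED30. The 4 genes without a called start were MED12, MED12L, MED13 and MED13L, the MED genes of the kinase module, which binds Mediator reversibly.

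The kinase module genes differed in what lay near them. MED12 had 1 call, 88 bp outside its 5′ end and pointing away, at 71118508 on chromosome X. MED13L likewise had 1 call pointing away, 192 bp outside its 5′ end at 116277885 on chromosome 12. MED13 had 2 calls near its upper end on chromosome 17, both forward, at 62065160 and 62065714. A reverse call at 62065970 points into MED13 from 692 bp outside its end, beyond the 500 bp window. MED12L had no call nearer than 320805 bp. The other subunits of the module, the kinases CDK8 and CDK19 and their cyclin CCNC, were all called, 3 of 3, 150 bp and 30 bp outside and 153 bp inside their gene ends.

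Of 14 genes of TFIIA, TFIIB, TFIIE, TFIIF and TFIIH, 10 had a called start (71.4%, 45.4% to 88.3%), against 41.4% of all protein-coding genes. Both TFIIE genes (GTF2E1 and GTF2E2), both TFIIF genes (GTF2F1 and GTF2F2), GTF2B, and the TFIIA genes GTF2A1 and GTF2A2 were called within 14 bp of their gene ends. GTF2A1 had 6 calls in or near the gene, the most of any gene in the set. GTF2A1L, a TFIIA paralogue known from testis, had no call nearer than 177232 bp, and GTF2A1 was called at 81221391 on chromosome 14, 1 bp outside its end. TFIIH had GTF2H1, GTF2H3 and GTF2H5 called, and GTF2H2, its copy GTF2H2C and GTF2H4 had no call in or near the gene. The remaining TFIIH genes, ERCC2, ERCC3, CDK7, CCNH and MNAT1, were called in 5 of 5 cases.

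TFIID had 14 of 17 genes called (82.4%, 59.0% to 93.8%), against 41.4% of all protein-coding genes. The called genes were TAF1, TAF2, TAF3, TAF4, TAF4B, TAF5, TAF6, TAF7, TAF8, TAF9B, TAF10, TAF11, TAF12 and TAF13. The exceptions were TAF9, TAF1L and TAF7L. The paralogues TAF5L and TAF6L, which replace TAF5 and TAF6 in the coactivator SAGA, were both called, as were all 4 TAFs of SL1 (TAF1A, TAF1B, TAF1C and TAF1D).

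Within the TAF pairs the calls fell in different ways. TAF4B was called 10 bp inside its end at 26226455 on chromosome 18, without a divergent partner, and TAF4 46 bp inside its end at 62065835 on chromosome 20, with a partner at 219 bp. TAF7L, known from male germ cells and fat cells, had no call nearer than 55648 bp, and TAF7 was called 22 bp inside its end at 141320762 on chromosome 5. TAF1L, a testis gene derived from a processed copy of TAF1, had no call nearer than 56237 bp, and TAF1 was called 1 bp outside its end at 71366356 on chromosome X. TAF9B was called 9 bp inside its end at 78139641 on chromosome X, with a partner at 107 bp, and TAF9 had no call nearer than 129888 bp.

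Both members of the pairs TAF5L with TAF5 and TAF6L with TAF6 were called. TAF5L was called 65 bp inside its end at 229626057 on chromosome 1, and TAF5 4 bp inside its end at 103367980 on chromosome 10. TAF6L was called 1 bp outside its end at 62771395 on chromosome 11, and TAF6 203 bp inside its end at 100126968 on chromosome 7. TAF6 had a second sense call at 100119355, 2 bp downstream of another of its annotated starts and 7816 bp inside the gene. TAF1 had a second sense call far inside, at 71492416, opposite a call that lies at the pseudogene INGX.

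All 7 genes of the RNA polymerase III factors, GTF3A for TFIIIA and GTF3C1 to GTF3C6 for TFIIIC, were called, against 41.4% of all protein-coding genes. All 7 had a divergent partner, 51 bp to 288 bp away, against 50.7% of all called protein-coding genes. GTF3A and the TFIIIC genes GTF3C2 and GTF3C4 were called on their first bases. A pair of inward calls, which are separate starts on the same strand, were found at 5 of the 7, namely GTF3C2, GTF3C3, GTF3C4, GTF3C5 and GTF3C6. In GTF3C2 they lay 0 bp and 315 bp inside the end, and in GTF3C5 31 bp and 291 bp inside, the inner one 2 bp downstream of another annotated start.

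The set as a whole had 2 inward calls at 15 of 90 called genes (16.7%, 10.4% to 25.7%), against 2 or more at 15.4% of all called protein-coding genes, and none had 3. The other 10 were POLR1B, POLR3B, POLR3D, POLR3E, MED14, MED29, GTF2F1, GTF2H1, TAF1D and TAF6L. In TAF6L the second call lay at the other end of the gene, 47 bp inside it and against its direction. In POLR1B and POLR3B the inner calls, at 112542466 and 106358110, lay 1 bp downstream of and exactly on further annotated starts.

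The 4 genes of the TFII-I family, multifunctional DNA-binding proteins named after TFII-I, had no called start. GTF2I had reverse calls 256 bp outside and 852 bp inside its lower end, at 74657462 and 74658570 on chromosome 7, and GTF2IRD1, GTF2IRD2 and GTF2IRD2B had no call in or near the gene. TAF15, an RNA-binding protein of the FET family, had none nearer than 221686 bp. The 13 genes TAF11L2 to TAF11L14, a cluster of TAF11-like copies on chromosome 5, had none nearer than 1032292 bp. The RefSeq windows of these 13 genes hold only 8 different sequences, so that they are not independent cases. Their interval for a called start (0% to 22.81%) lies below 41.4%, but it treats them as independent.

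Starts lay close to the annotated ends. The nearest inward call was a median of 2 bp inside the gene end (quartiles -0.75 bp and 18.5 bp, range -275 bp to 203 bp, n = 90), against 4 bp (quartiles -1 bp and 32 bp) over all 8207 called protein-coding genes. It lay within 10 bp of the end in 57 of 90 (63.3%, 53.0% to 72.6%), against 45.9%. For genes whose strand the RefSeq windows give, the nearest inward call was at the 5′ end in 73 of 73, against 98.5% of 6884 called protein-coding genes. A sense call within 500 bp of some annotated start was found for 74 of 100 genes with a known strand (74.0%, 64.6% to 81.6%), against 47.0% of all such protein-coding genes.

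Some starts lay over 100 bp from the gene end. TAF6 (203 bp), POLR1B (141 bp) and MED23 (109 bp, at 131628204 on chromosome 6) lay inside. MED14 lay 275 bp outside, at 40736434 on chromosome X, and had another inward call 328 bp inside, at 40735831, which faces a call at the start of the antisense gene MED14OS. TAF12 was called 21 bp inside its outer end at 28648248 on chromosome 1, but 5184 bp inside the gene a sense call at 28643085 lay 18 bp upstream of its annotated start, facing a call 152 bp away at the start of the divergent transcript TAF12-DT. The outer call also lies next to the small nuclear RNA gene RNU11, whose first base, 28648600, was called on the forward strand.

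**Figure D3:**
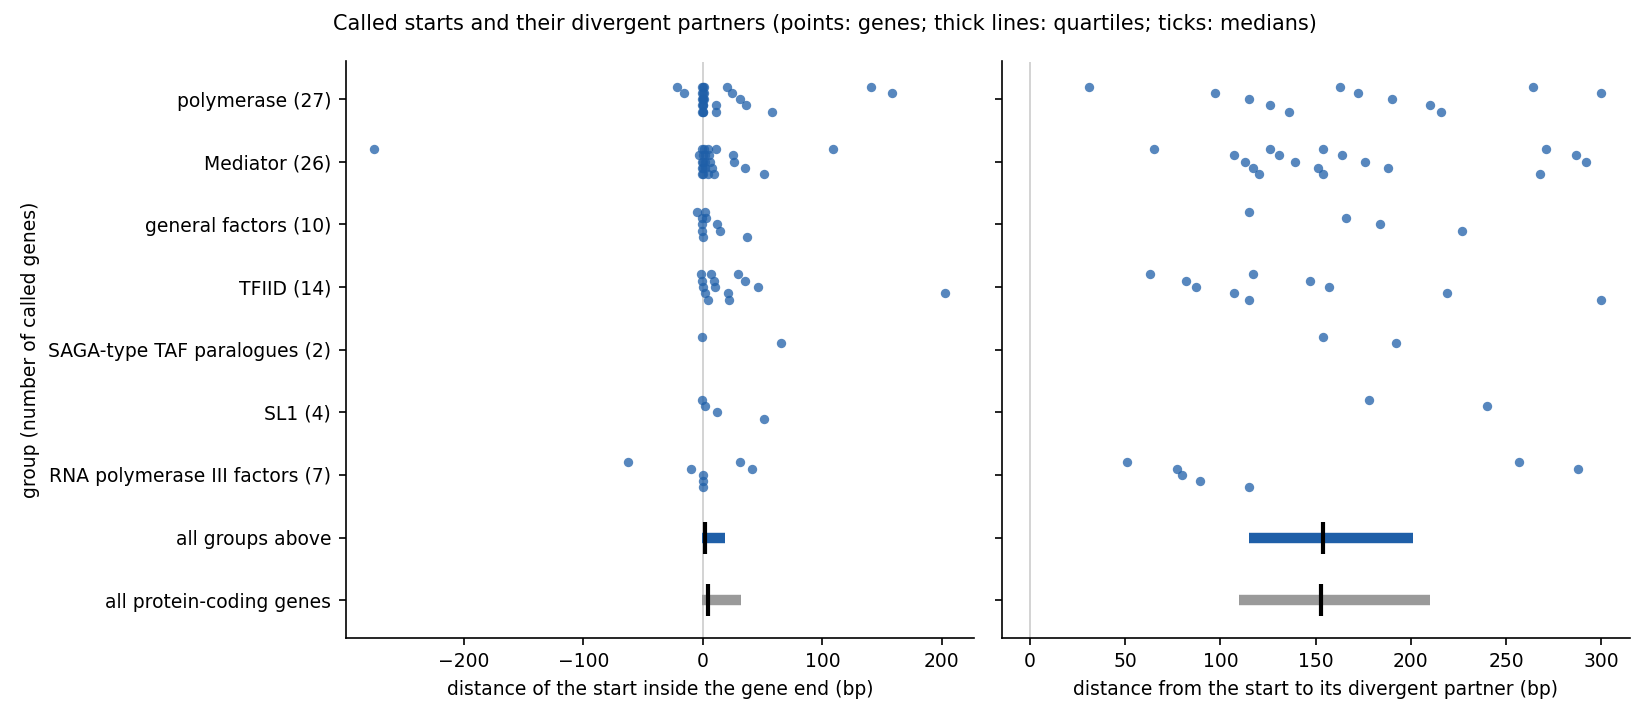
Points are genes, in rows by group (vertical axis, with the number of called genes), and the horizontal axes give in bp the distance of the start inside the gene end (left) and the distance to the divergent partner (right); the thick lines and ticks at the bottom give quartiles and medians, in blue for these genes and in grey for all called protein-coding genes. Of 90 starts, 57 sit within 10 bp of 0, MED14 stands apart at -275 bp, and partner medians are 154 bp in these genes and 153 bp in all called protein-coding genes.

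Called starts were often 1 side of a divergent pair, in which a second call on the opposite strand lay 0 to 300 bp upstream. Where a gene had more than 1 inward call, the one nearest to the gene end was used. Such a partner was found for 55 of 90 (61.1%, 50.8% to 70.5%), against 50.7% of all called protein-coding genes. With the partner of any inward call counted, an alternative chosen after the data were seen, GTF2H1, MED14 and POLR3B were added, at 146 bp, 192 bp and 152 bp from their other inward call. The count was then 58 of 90 (64.4%, 54.2% to 73.6%), against 53.4%. For the nearest inward call the median distance was 154 bp (range 31 bp to 300 bp), against 153 bp. The groups ran from 7 of 7 TFIIIA and TFIIIC genes, 18 of 26 Mediator genes (19 with any inward call) and 10 of 14 TFIID genes to 12 of 27 polymerase genes (13 with any inward call) and 4 of 10 general factor genes (5 with any inward call). Among the 12 called genes with POLR2 symbols, only POLR2A, POLR2B and POLR2K had a partner. These are counts of small groups, and differences between groups were not tested.

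A convergent call, on the opposite strand up to 300 bp downstream of the nearest inward call, was found for 9 of 90 (10%, 5.35% to 17.9%), against 8.12%. The 9 genes were GTF2A1, GTF2B, MED11, MED22, POLR3B, POLR3C, TAF1B, TAF6L and TAF8.

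In 19 of 90 called genes the partner was itself at the start of another protein-coding gene (21.1%, 14.0% to 30.6%), against 14.0% of all called protein-coding genes. A start here is a gene end within 500 bp into which the call points. For neighbours of unknown strand, such as FBXO43, URB2, MBLAC1 and C17orf100, either end was allowed. The 7 polymerase genes of this kind are given here with the position of their own call and, after the neighbour, the distance between the 2 calls. They were POLR2A (chromosome 17, 7484366) with ZBTB4 (115 bp), POLR2K (chromosome 8, 100150656) with FBXO43 (126 bp), POLR1C (chromosome 6, 43517089) with YIPF3 (163 bp) and POLR1G (chromosome 19, 45406643) with PPP1R13L (300 bp) and, for RNA polymerase III, POLR3C (chromosome 1, 145824178) with RNF115 (190 bp), POLR3GL (chromosome 1, 145964690) with ANKRD34A (216 bp) and POLR3K (chromosome 16, 53608) with SNRNP25 (264 bp). Among the neighbours ZBTB4 encodes a DNA-binding repressor and SNRNP25 a protein of the minor spliceosome.

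The Mediator genes of this kind included MED22 (chromosome 9, 133348096) with RPL7A (126 bp), MED29 (chromosome 19, 39391378) with PAF1 (271 bp) and MED31 (chromosome 17, 6651603) with C17orf100 (164 bp). RPL7A encodes a ribosomal protein and PAF1 an elongation factor of RNA polymerase II. The 5 factor genes were GTF2E1 (chromosome 3, 120742744) with RABL3 (227 bp), GTF2H3 (chromosome 12, 123633828) with EIF2B1 (184 bp), GTF2H5 (chromosome 6, 158168362) with SERAC1 (115 bp), GTF3C1 (chromosome 16, 27549923) with KATNIP (257 bp) and GTF3C4 (chromosome 9, 132670035) with DDX31 (51 bp). EIF2B1 belongs to a translation initiation factor, and DDX31 is known in ribosome assembly. The 3 TAF genes were TAF1D (chromosome 11, 93741493) with C11orf54 (178 bp), TAF5L (chromosome 1, 229626057) with URB2 (192 bp) and TAF6 (chromosome 7, 100126968) with MBLAC1 (300 bp), of whose neighbours URB2 is also known in ribosome assembly. The pair of GTF3C4 and DDX31 was the closest of the 19, and those of POLR1G and TAF6 lay at the limit of the window.

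Counting noncoding genes too, the partner lay at the start of another gene in 31 of 90 called genes (34.4%, 25.4% to 44.7%). The share over all called protein-coding genes was 22.2%. For noncoding neighbours of unknown strand, such as RNU6-9 and MIR320A, either end was allowed, so that it may not be the true start. Some calls near these genes lie at short RNAs of other classes. The partner of MED16, at 893480 on chromosome 19, lies 4 bp from the lower end (893484) of RNU6-9, a U6 small nuclear RNA gene of the class read by RNA polymerase III. At POLR3E, the outer of the 2 forward calls, at 22297133 on chromosome 16, lies close to the lower end (22297140) of the transfer RNA gene TRL-AAG2-4. POLR3E thus had 1 call 24 bp inside its own end and 1 call 276 bp outside it, and which of the genes the outer call belongs to cannot be told apart from the positions.

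The bases at the call could be read for 72 genes with a sense call inside a RefSeq window, against 6563 protein-coding genes. A pyrimidine followed by a purine, the initiator step of most human starts, lay at the call in 23 of 72 (31.9%, 22.3% to 43.4%), against 30.9%. In another 29 (40.3%, 29.7% to 51.8%), against 46.7%, the call lay on a C with a purine after it, as in TAF1, GTF2A1 and GTF2B above. Either arrangement was found in 52 (72.2%, 61.0% to 81.2%), against 77.6%. Over all positions of the same windows these arrangements are found at 36.1% in these genes and 37.2% in all protein-coding genes. The step CA lay at the call in 0 of 72 (0% to 5.07%), against 1.28%. Over all positions of the same windows CA is found at 5.04% in these genes and 5.25% in all protein-coding genes. In calls on a C before a purine, the pyrimidine-purine step thus lay 1 base downstream of the printed position. Positions printed here should therefore be read with an uncertainty of 1 base, on the downstream side for such calls. Whether it comes from the calling was not tested. The call lay on the annotated start base itself in 18 of 72 (25%, 16.4% to 36.1%), against 12.9%.

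Motif letters were counted on both strands of the 300-base RefSeq windows, 250 bases before the annotated start and 50 from it on, for 73 called genes and for 6884 called protein-coding genes. Only the first listed window of each gene was read, so that it need not hold the called start, as in TAF6 and TAF12. The ETS site CCGGAAG, bound by factors of the ETS family such as GABPA, was in 33 of 73 windows (45.2%, 34.3% to 56.6%), against 24.3%. Over all 15812 protein-coding windows it was in 14.2%, and over all 100 windows of the set in 37.0%. It lay within the 100 bases around the call in 23 of 72 genes (31.9%, 22.3% to 43.4%), against 13.5% of 6563. TAF13, GTF2A1 and GTF3C2 above carry it, beginning 22 bases and 21 bases before the call and 6 bases after it, and GTF3C2 holds it a second time, on the other strand, overlapping the first.

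The E-box CACGTG, bound by factors such as USF and MYC, was in 14 of 73 windows (19.2%, 11.8% to 29.7%), against 11.7%, and in 8.87% of all windows. Within the 100 bases around the call it was in 6 of 72 (8.33%, 3.88% to 17.0%), against 4.46%, a share inside that interval. GTF2A1 holds it 8 bases before the call and POLR3A 34 bases before it, as the lines above show. The YY1 core AAGATGG was in 12 of 73 (16.4%, 9.66% to 26.6%), against 9.40%, and in 6.40% of all windows. Within the 100 bases around the call it was in 8 of 72 (11.1%, 5.74% to 20.4%), against 6.80%, also inside the interval. It begins 7 bases after the call in TAF5 and in TAF6, 14 after it in MED1 and 18 after it in POLR1C.

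Of the remaining motifs, the GC box had an interval below the share in called protein-coding genes, and the other 4 had intervals that held that share. The GC box GGGCGG was in 42 of 73 windows (57.5%, 46.1% to 68.2%), against 73.1%, and in 58.5% of all windows. CCAAT was in 22 (30.1%, 20.8% to 41.4%), against 39.3%, and in 36.3% of all windows. The NRF1 core CGCATGC was in 4 (5.48%, 2.15% to 13.3%), against 8.21%, and in 5.14% of all windows. TATAAA was in 5 (6.85%, 2.96% to 15.1%), against 5.11%, and in 9.64% of all windows, and the erythroid GATA letters AGATAA were in 3 (4.11%, 1.41% to 11.4%), against 4.34%, and in 7.55% of all windows.

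TATAAA stood at the distance usual for a TATA box in 1 gene, GTF2B, where it begins 31 bases before the call, and in TAF4B it begins 3 bases before the call and so overlaps it. The G and C content of the windows, which bears on each of these counts, had a median of 59.3% in the 73 called genes, against 65.3% in called protein-coding genes. A match is a run of letters and not a measured binding site, and the part of base composition in the counts was not tested.

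**Figure D4:**
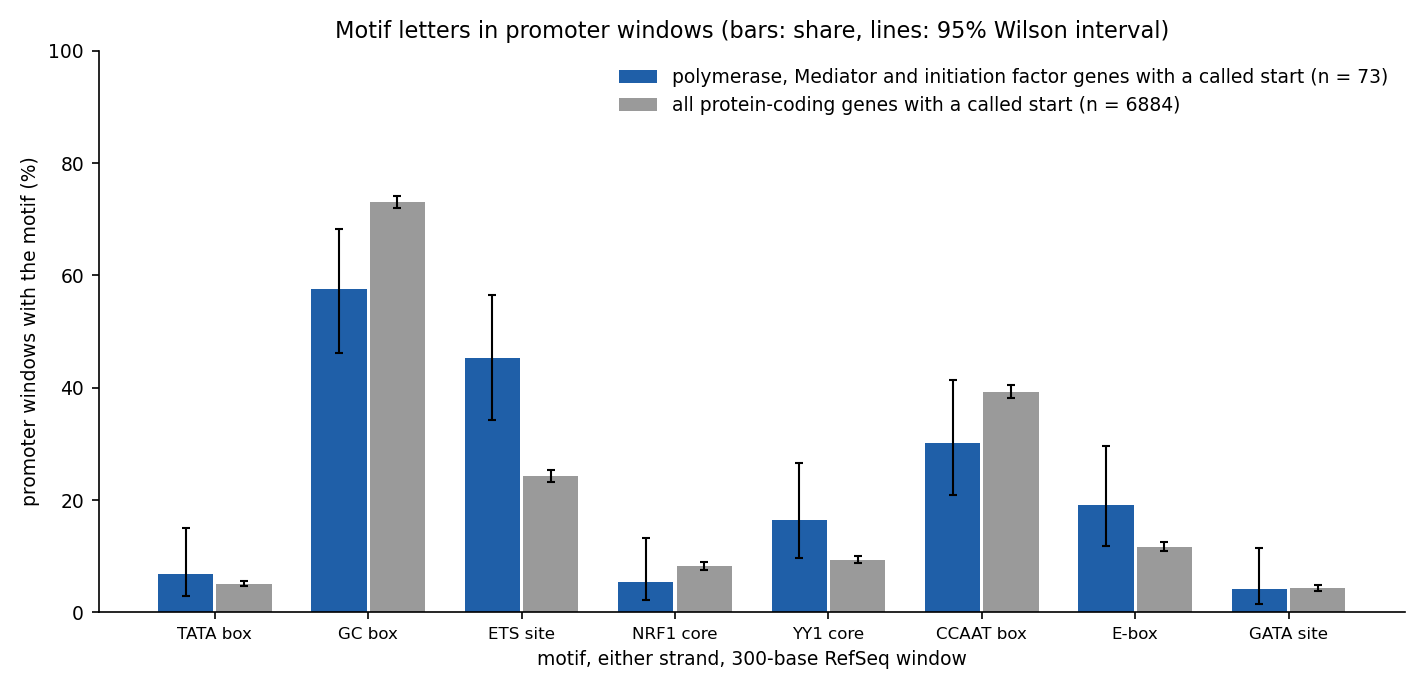
Bars give the share of RefSeq promoter windows (%) that hold each motif on either strand, in blue for the 73 called genes of the set and in grey for 6884 called protein-coding genes, with 95% Wilson intervals as lines. The ETS site is at 45.2% against 24.3% and the GC box at 57.5% against 73.1%, with intervals that do not overlap, whereas the YY1 core and the E-box have intervals that do.

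Of the 35 genes without a called start, 7 had other calls in or near them (GTF2I, MED12, MED13, MED13L, POLR1D, POLR2M and POLR3G) and 28 had none. Of all 19821 protein-coding genes, 10425 had a call in or near the gene, 8207 had a called start and 11614 had no called start. A call inside the gene was found for 4 of the 35, against 1820 of those 11614. Among 27 of the 35 genes with a known strand, 4 had a call pointing away at the 5′ end (MED12, MED13L, POLR1D and POLR2M). This is 14.8% (5.92% to 32.5%), against 7.59% of all uncalled protein-coding genes. At MED12, MED13L and POLR2M that call was the only one, so that the upstream direction was called and the gene direction was not.

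The distance to the nearest call of any kind rested on the TAF11L copies. Without these 13 genes it had a median of 55943 bp over 22 genes, against 44302 bp for 11614 uncalled protein-coding genes, and it was more than 100 kb for 8 of 22, against 3997 of 11614. With the copies, which form 1 cluster, the median was 320805 bp and 21 of 35 genes lay more than 100 kb from a call. Of the 20 nearest protein-coding genes, 10 on each side, a median of 3 had a called start around the uncalled genes (5 without the TAF11L genes), against 9 around the called ones. The TAF11L genes count each other as neighbours. These medians were not computed for all called and uncalled protein-coding genes, of which 41.4% had a called start. Whether the difference is particular to this set therefore cannot be told.

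Several uncalled genes lie in long stretches with no call of any gene. POLR1H and GTF2H4 lie in 1 stretch of chromosome 6, from the call at 28490104 to the call at 33571322, which is 5.08 Mb long and holds 172 protein-coding genes, among them NELFE of the pausing factor NELF. TAF9, GTF2H2 and GTF2H2C lie in a stretch of 3.07 Mb on chromosome 5 (69234855 to 72308375) with 26 protein-coding genes, among them BDP1 of TFIIIB. TAF15 lies in a stretch of 3.27 Mb on chromosome 17 (35587798 to 38853537) with 59 protein-coding genes. GTF2A1L and MED12L lie in stretches of 5.33 Mb with 8 and 1.43 Mb with 12 protein-coding genes. The TAF11L genes lie in a stretch of 4.99 Mb on chromosome 5 (16465939 to 21459525), where they are 13 of 19 protein-coding genes. POLR1H, GTF2H4, TAF9, GTF2H2 and TAF15 are thus uncalled together with their surroundings, and whether reads there were kept for calling was not tested.

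**Figure D5:**
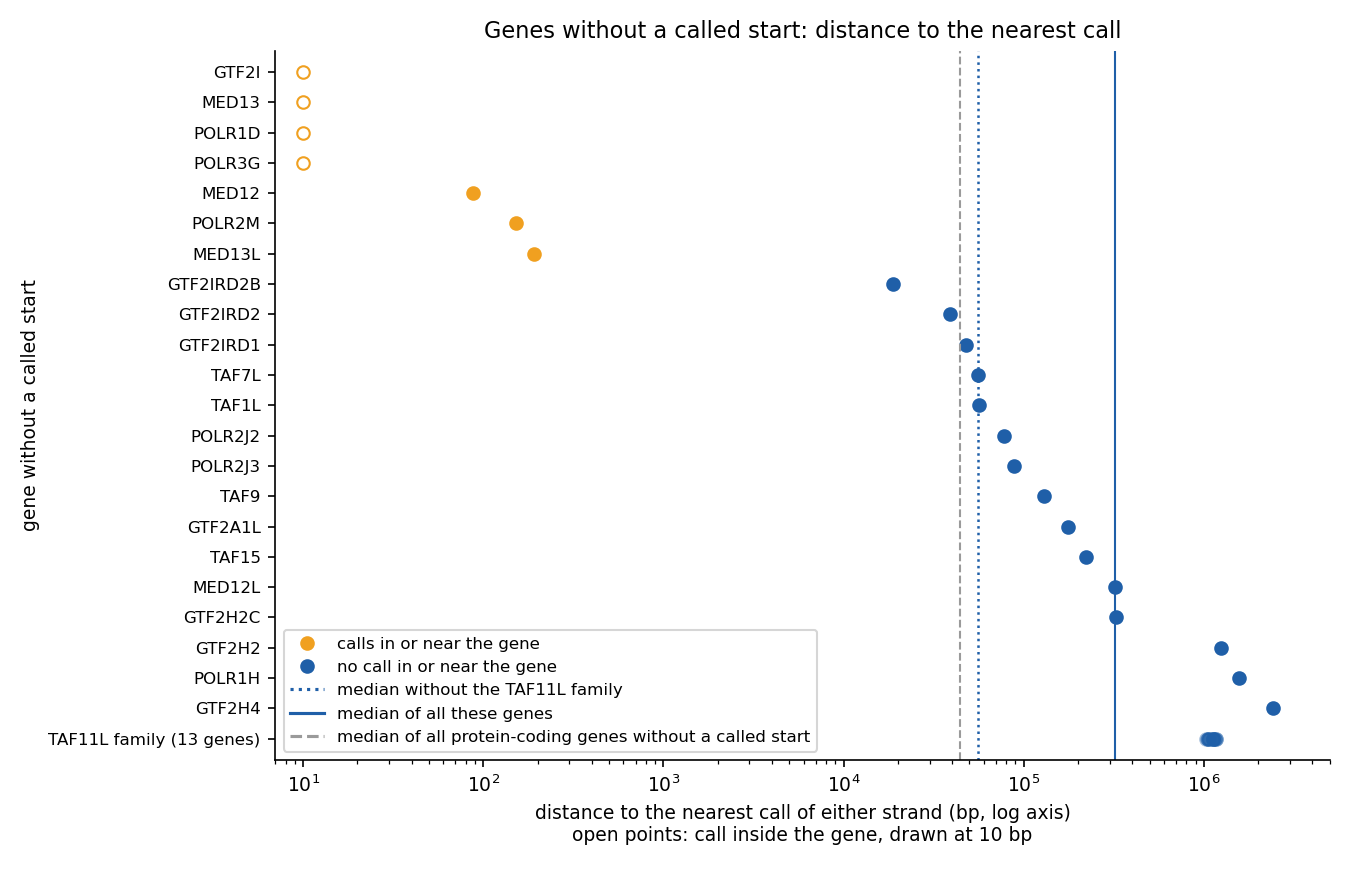
Each point is a gene without a called start (vertical axis) at its distance in bp from the nearest call of either strand (horizontal log axis), in orange where calls lie in or near the gene and in blue where none does; open points, with a call inside the gene, are drawn at 10 bp. The dotted blue line marks the median of the 22 genes outside the TAF11L family (55943 bp), the solid blue line that of all 35 (320805 bp) and the grey dashed line that of all uncalled protein-coding genes (44302 bp).

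Partners of this machinery outside the symbol rule were called about as often as its main subunits. Of 52 genes in 7 lists, 46 had a called start (88.5%, 77.0% to 94.6%), against 41.4% of all protein-coding genes. The lists and the main subunits were both chosen by hand with earlier results of these data known. The list of pausing and elongation factors had 20 of 21 called, the exception being NELFE: NELFA, NELFB, NELFCD, SUPT4H1, SUPT5H, SUPT6H, CDK9, CCNT1, CCNT2, HEXIM1, LARP7, TCEA1, ELL, ELL2, AFF4, PAF1, CTR9, LEO1, CDC73 and RTF1.

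TBP, its paralogues TBPL1 and TBPL2, and BTAF1, a factor that acts on TBP, had 3 of 4 called (TBP, TBPL1 and BTAF1). TBP was called 3 bp inside its end, and TBPL2, known from oocytes, had no call. The list for RNA polymerase III initiation, which also holds the enzyme subunit CRCP and the repressor MAF1, had 8 of 10 called (BRF2, SNAPC1 to SNAPC5, CRCP and MAF1). BDP1 had no call, and BRF1 had 5 calls in or near the gene but none at its ends. The list for RNA polymerase I initiation, which also holds the termination factor TTF1, had UBTF and TTF1 called. RRN3 was not called and had no call in or near it. Assembly factors had 5 of 6 called (RPAP1, RPAP2, RPAP3, GPN2 and GPN3), and GPN1 had 2 calls in or near the gene.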

How the data were processed

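Per the labels, nuclear RNA of 2 biological replicates of HUDEP-2 cells was used for PRO-cap. The tools BWA 0.7.16a, SAMtools 1.17, deepTools 3.5.4 and Picard and the build hg38 are listed in the submitters' processing notes. How starts were called, how reads matching several places were handled and whether replicates were pooled is not given in the sources used here. Called positions and a score were deposited by the authors. Positions are other values than measurements and are printed 1-based, and the deposited score is 0 for all 26395 calls. No value per replicate or depth was used.

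Calls were read on chromosomes 1 to 22 and X (26332, with 63 elsewhere). The smallest gap between calls of the same strand is 251 bp. A called start was a call within 500 bp of a gene end pointing inwards, a divergent partner the nearest opposite call 0 to 300 bp upstream of the inward call nearest the gene end, and a partner or call was assigned to another gene by the same 500 bp rule. Strand and sequence came from RefSeq promoter windows of GRCh38.p14, found for 100 of 125 genes. Shares have 95% Wilson intervals (statsmodels 0.14.6, Python 3.11.15), and no test across samples could be made. Matching was tested on simulated data with known positions.

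The genes, lists, paralogue pairs and motifs were chosen with earlier results of these data known. By the rule for named genes, genes are named, with positions for catalytic subunits, paralogues, starts over 100 bp from an end and uncalled genes with other calls, and partner distances for coding neighbours. A few results under this rule are not reported here. Windows of 200 bp and 1000 bp, partner limits of 150 bp and 500 bp, margins of 0 bp and 1000 bp, calls moved by 10 kb, and other sets of genes were tried as alternatives.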

Additional observations from a re-analysis of the deposited data

Results flagged for a closer look

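Outside the 23 chromosomes compared, 11 calls lay on alternate sequences of chromosome 6. They belong to no comparison of the report. POLR1H and GTF2H4 lie on chromosome 6 in the stretch between 28490104 and 33571322 that holds no call, and whether the calls on alternate sequences belong to copies of these or of neighbouring genes was not tested.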

How the results depend on the processing

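Of 22 alternatives, 16 left the share within the interval of the value reported and 6 moved it outside. Among the 16, the partner share could not move without the TAF11L genes or without chromosome 6 from 28 to 34 Mb. Only uncalled genes were removed there, so that it stayed at 55 of 90. The share of genes with a called start was 85.58% without near-identical copies, and 80.36% without the TAF11L genes and 87.0% for main subunits only, both of which were chosen after the data were seen. It was 4.8% with all calls moved by 10 kb (GTF3A, MED20, MED29, POLR3D, TAF1D and TAF6L). The share of called genes with a divergent partner was 28.89% within 150 bp. The share with any call was 64.8% with a margin of 0 bp, where calls just outside a gene end are not counted. Window sizes moved few genes: 1000 bp added MED13 and POLR3G, and 200 bp dropped MED14 and TAF6. No paired analysis was possible because there is 1 group and the calls name no replicate, and for the same reason no replicate could be left out. What limits depth cannot be stated: calls carry no reads, absence of a call is not absence of transcription, and copies of a gene are not told apart.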
